A study of Caenorhabditis elegans with 2 samples.

Results

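Synaptic vesicle release genes encode the machinery that brings a neurotransmitter-filled vesicle to the plasma membrane, makes it ready and fuses it there when calcium enters. Here 10 of them, chosen by name, were taken from the 19973 nuclear protein-coding genes of the WBcel235 annotation: unc-64, snb-1, ric-4, unc-13, unc-18, snt-1, rab-3, unc-10, unc-104 and unc-11. The question was where ZAG-1, a transcription factor with zinc fingers and a homeodomain, related to vertebrate ZEB proteins and known for its part in neuron fate,, was listed as enriched at these genes. A region of a list was counted for a gene when its summit, the position of highest enrichment, lay between 5000 bp upstream of the annotated gene start and the gene end. All 10 names were found in the annotation, and all are described.

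The measurement was ChIP-seq, the sequencing of DNA recovered by chromatin immunoprecipitation, in whole L4 larvae of Caenorhabditis elegans, both sexes pooled, in 1 group with 2 biological replicates. Both replicates are of strain OP83, which carries unc-119(ed3) on III and the insertion wgIs83, with an eGFP-tagged zag-1 transgene; their age in hours is given as unknown. Nothing but whole worms was sampled, so neurons were not separated from other cells, and no group without the transgene was analysed here. The authors deposited 4 lists of regions in the ce11 build: 11750 for replicate 1, 30000 for replicate 2, 4010 for the pooled replicates and 246 peaks that passed their reproducibility analysis (irreproducible discovery rate, IDR). Each region has the authors' signal value, and its rank by that value within its list is used below, since the replicate lists differ in length and in scale. The pooled and replicate lists include background by their own titles, and none of the lists holds read counts, so the depth is unknown and a region far down a list is a listed position and not by itself a binding site.

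In textbook accounts, fusion is driven by the SNARE proteins, syntaxin and SNAP-25 on the plasma membrane and synaptobrevin on the vesicle, which zip into a tight bundle. UNC-18 and UNC-13 prepare syntaxin for this step, synaptotagmin senses calcium, RAB-3 and the RIM protein UNC-10 hold vesicles at the active zone, the kinesin UNC-104 carries vesicle precursors along the axon, and the clathrin adaptor UNC-11 takes part in recovering vesicle membrane. These genes are expressed throughout the nervous system of the worm.

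Of the release genes, unc-64, the syntaxin gene, was the only one with an IDR peak, and unc-10, the RIM gene, lay just below the IDR set. An IDR peak was in the window of 1 of 10 members, against 2.21% of all protein-coding genes. A pooled region was in the window of 7 of 10, namely unc-64, snb-1, ric-4, unc-13, unc-18, unc-10 and unc-104, against 25.2%. A replicate 1 region was in the window of 9 of 10, all but snb-1, against 57.2%. A replicate 2 region was in the window of 10 of 10, against 86.3%. Regions of the replicates that overlapped each other by at least 1 bp, both with their summit in the window, were found at 4 of 10, unc-64, snt-1, unc-10 and unc-104, against 25.0%. The members had a median of 1 pooled, 2 replicate 1 and 6 replicate 2 regions each, where the medians over all genes were 0, 1 and 2.

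The members' windows are longer than most, with a median of 11987 bp (5940 bp at snb-1 to 36332 bp at unc-13) against 7027 bp over all genes. The share of genes with a pooled region went up with window length, from 19.6% of genes with windows under 7500 bp to 27.6% from 7500 to 9999 bp, 37.7% from 10000 to 14999 bp, 47.5% from 15000 to 19999 bp and 63.1% from 20000 bp on. In the class of 10000 to 14999 bp, which holds 6 members, 3 had a pooled region, ric-4, unc-10 and unc-64. The only member under 7500 bp, snb-1, the only one from 7500 to 9999 bp, unc-18, and both from 20000 bp on, unc-13 and unc-104, also had one. For overlapping regions of both replicates the shares of genes also went up, at 19.5%, 27.4%, 36.9%, 47.5% and 62.4% in the same order of classes. The members with such regions were 3 of the 6 from 10000 to 14999 bp and 1 of the 2 from 20000 bp on. Neither snb-1 nor unc-18 had them. A replicate 1 region was at 49.4% of genes under 7500 bp, 74.8% from 10000 to 14999 bp and 92.3% from 20000 bp on. For a replicate 2 region the shares in these classes were 81.5%, 96.3% and 99.8%. The part of window length in the members' counts was not tested.

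**Figure D1:**
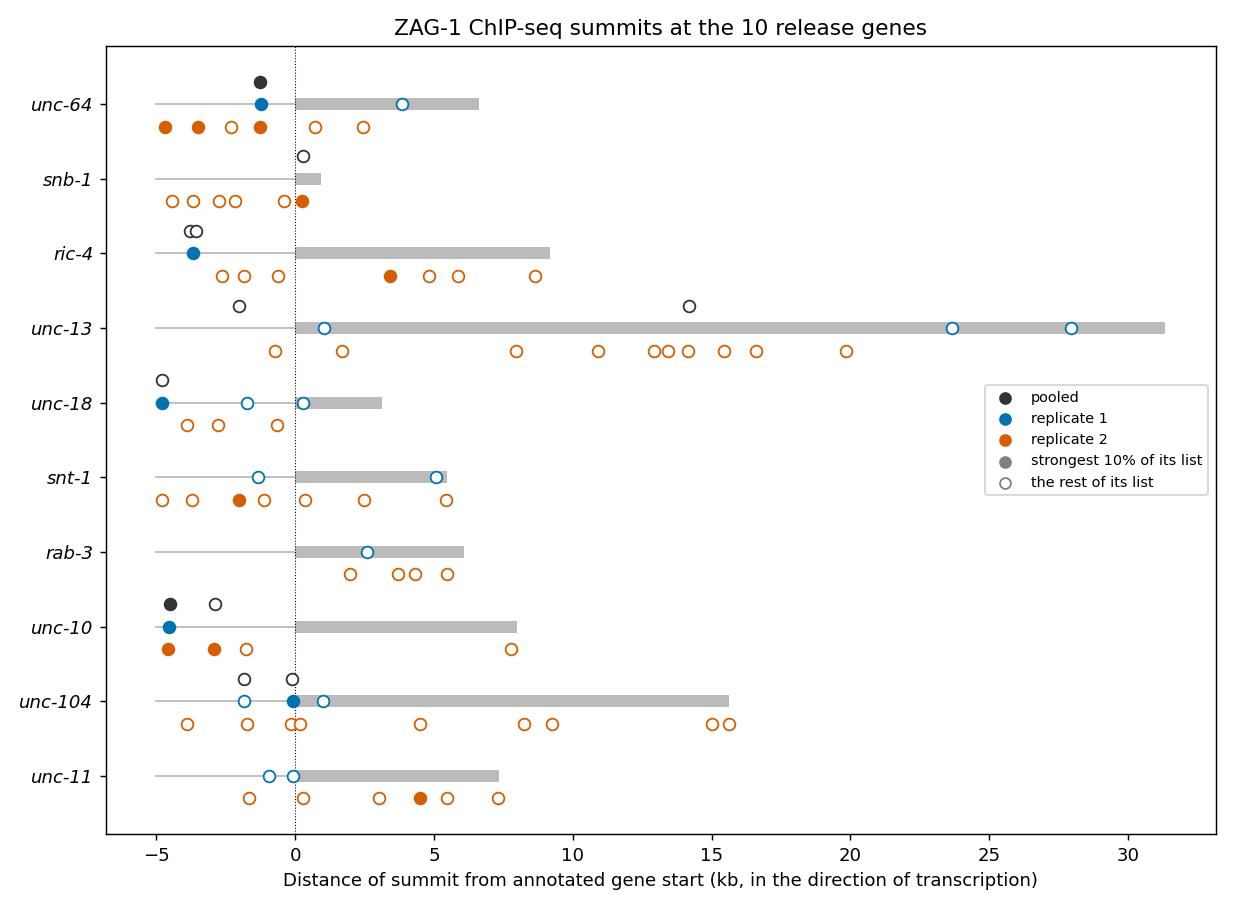
Summits at the 10 release genes, by distance from the annotated gene start in kb (grey bar, gene; grey line, 5 kb upstream), from the pooled list, replicate 1 and replicate 2; filled points are in the strongest 10% of their list. Pooled summits lie mostly upstream, 9 of 11, while 35 of 62 replicate 2 summits lie in gene bodies. Gene bodies make up 93.8 kb of the 144 kb of windows. Per 10 kb, replicate 2 also has more summits upstream (5.40) than in gene bodies (3.73).

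The sequences at 5 of the pooled summits are shown to let the regions be compared: the IDR peak of unc-64, the region of unc-10 next in strength, the stronger region of ric-4, the distal upstream region of unc-104, and the region inside snb-1. All 5 hold at least 1 of the words marked below, and some pooled summits that are not shown hold none. The stronger region of unc-104, whose stretch of the same length reaches 1 bp into an annotated UTR, is not shown. Each runs from 100 bp on one side of the pooled summit to 100 bp on the other, on the plus strand of WBcel235, read from the RefSeq genome of that build. Capitals mark 6 hexamers, searched on both strands and allowed to overlap: CAGGTA or CAGGTG, which ZEB-type zinc fingers bind, and GAGAGA or CACACA or CGTCTC or ACGCAG, which were chosen because earlier results of these data named them.
unc-64, chrIII:13275888-13276088: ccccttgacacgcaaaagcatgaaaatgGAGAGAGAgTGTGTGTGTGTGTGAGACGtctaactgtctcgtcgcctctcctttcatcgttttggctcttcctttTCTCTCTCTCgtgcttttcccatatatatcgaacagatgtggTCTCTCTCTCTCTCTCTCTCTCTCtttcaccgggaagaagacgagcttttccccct
unc-10, chrX:7284731-7284931: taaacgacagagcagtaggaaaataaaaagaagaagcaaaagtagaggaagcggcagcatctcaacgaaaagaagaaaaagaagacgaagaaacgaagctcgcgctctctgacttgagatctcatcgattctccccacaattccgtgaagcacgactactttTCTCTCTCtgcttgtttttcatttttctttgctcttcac
ric-4, chrV:10273774-10273974: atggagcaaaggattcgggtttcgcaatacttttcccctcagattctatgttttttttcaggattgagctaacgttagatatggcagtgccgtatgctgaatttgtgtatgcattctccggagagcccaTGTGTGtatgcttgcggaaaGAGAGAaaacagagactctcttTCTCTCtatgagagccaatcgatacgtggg
unc-104, chrII:6993044-6993244: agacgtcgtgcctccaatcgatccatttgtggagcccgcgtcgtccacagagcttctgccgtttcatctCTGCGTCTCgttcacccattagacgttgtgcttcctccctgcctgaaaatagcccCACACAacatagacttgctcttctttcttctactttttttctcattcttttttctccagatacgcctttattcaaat
snb-1, chrV:6656131-6656331: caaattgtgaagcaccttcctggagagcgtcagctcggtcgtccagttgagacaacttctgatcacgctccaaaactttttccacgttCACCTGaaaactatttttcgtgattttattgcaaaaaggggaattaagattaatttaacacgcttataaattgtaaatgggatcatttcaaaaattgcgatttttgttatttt

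The unc-64 peak is rich in runs of CT and GT. GAGAGA, read there on the other strand as TCTCTC in most places, occurred 15 times with overlaps, a number that 2 of the 246 IDR peaks reached, itself included, against a median of 0. CACACA occurred 5 times, reached by 10 IDR peaks, and CGTCTC once. At the other members the words were few, with 2 occurrences of GAGAGA at each of the unc-10 and stronger ric-4 summits. The distal unc-104 summit held CACACA once, and CGTCTC and ACGCAG once each in 1 overlapping stretch. None of the 6 words was at the stronger unc-104 summit, either unc-13 summit, the weaker ric-4 summit or the unc-18 summit. Over the 11 pooled summits at members, GAGAGA was in 4 (20.4% of all pooled summits held it), CACACA in 4 (14.6%), CGTCTC in 2 (12.2%) and ACGCAG in 1 (10.5%). Within 100 bp of protein-coding gene starts the shares of these 4 words were 13.96%, 9.58%, 7.83% and 4.89%. The ZEB-type word CAGGTG was in 1 of the 11, inside snb-1, where it reads CACCTG on the plus strand, against 4.71% of all pooled summits, and CAGGTA was in 0, against 4.16%. At gene starts CAGGTG was in 6.38% and CAGGTA in 6.93%, more than at all pooled summits. No match says only that these letters are not in the window.

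At unc-64 both replicates had a region at the IDR peak, 1270 bp upstream of the start and outside protein-coding genes. The peak, chrIII:13275818-13276157, had signal 62.1 and rank 98 of 246 in the IDR list and 98 of 4010 in the pooled list. In replicate 1 the overlapping region had signal 27.8 and rank 322 (2.74% of its list), with its summit 56 bp closer to the gene. In replicate 2 it had signal 15.7 and rank 986 (3.29% of its list), with its summit 6 bp farther away. Neither replicate alone placed it among its 246 strongest regions, so unc-64 was not in a set of that size from replicate 1 or from replicate 2. The nearest start of any protein-coding gene was that of unc-64. In replicate 2 a slightly stronger region, rank 876 and signal 16.1, lay 4680 bp upstream, where the start of cpf-2, a gene for a cleavage and polyadenylation factor, is nearer; replicate 1 had none there. The remaining regions of unc-64 were weaker, with ranks from 2784 to 14281 in replicate 2 and, in an intron, 7952 in replicate 1.

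At ric-4, the SNAP-25 gene, a region far upstream was strong in replicate 1 and absent from the replicate 2 list. Replicate 1 listed chrV:10273810-10274165, 3674 bp upstream, with signal 28.1 and rank 309 (2.63%), the best rank of any member in that replicate. The pooled list has a pair of regions there that share 118 bp, at 3560 bp upstream with signal 34.3 and rank 581 and at 3782 bp upstream with signal 27.1 and rank 1642, and both overlap that single region of replicate 1. The nearest protein-coding start to each was that of Y22F5A.11 and not of ric-4. Replicate 2 had 7 regions at ric-4, all elsewhere, the strongest in an intron 3420 bp downstream of the start with signal 12.6 and rank 2866 (9.55%).

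At snb-1, the synaptobrevin gene, the pattern was the opposite, with regions in replicate 2 only. Its strongest lay in an intron 249 bp downstream of the start, chrV:6656114-6656389, with signal 17.8 and rank 509 (1.70%). The pooled region there, 270 bp downstream, had signal 31.1 and rank 863 of 4010. Replicate 2 listed 5 more regions upstream, from 387 to 4429 bp, with ranks from 3384 to 24247. Replicate 1 listed 0 regions in the whole window.

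Of the genes that prepare syntaxin, unc-13 had the longest window and only low-ranked regions. Its pooled regions were at 2025 bp upstream, with signal 28.7 and rank 1255, and in an intron 14170 bp downstream, with signal 26.3 and rank 1926. The upstream one, chrI:7420590-7420929, was overlapped by a region of neither replicate, as were 68 of all 4010 pooled regions (1.70%). The intronic one was overlapped by the replicate 2 region of rank 29219 of 30000. Replicate 1 had 3 regions at unc-13, ranks 3836 to 11687, and replicate 2 had 10, ranks 7348 to 29219, and none of the 3 overlapped any of the 10.

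At unc-18, the gene of the syntaxin-binding Sec1/Munc18 protein, the strongest region lay inside a neighbour. Replicate 1 placed it 4787 bp upstream, in an intron of the syntrophin gene stn-2, whose start was nearest, with signal 22.0 and rank 889 (7.57%). The pooled region had its summit at the same base, with signal 25.8 and rank 2158. Replicate 2 had no region there, and its 3 regions at unc-18, at 655, 2780 and 3895 bp upstream, ranked 16689, 23097 and 23029. In replicate 1, 2 further regions lay 1745 bp upstream, rank 2695, and in an intron 296 bp downstream, rank 6873.

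At snt-1, the synaptotagmin gene, the replicates met only at weak regions, and the pooled list had none. The overlapping regions were 1334 bp upstream in replicate 1, with signal 15.4 and rank 4907 (41.8%), and 1114 bp upstream in replicate 2, with signal 8.79 and rank 11337 (37.8%), and their summits were 220 bp apart. The strongest replicate 2 region, 2039 bp upstream with signal 15.3 and rank 1133 (3.78%), was nearer to the start of F31E8.5. Replicate 2 had 7 regions at the gene and replicate 1 had 2, the other in the 3' UTR at rank 7453.

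At rab-3, the gene of the vesicle-bound small GTPase, every listed region lay inside the gene. Replicate 1 had 1, in an intron 2574 bp downstream of the gene start and 549 bp upstream of the start of another annotated transcript, with signal 20.3 and rank 1287 (10.95%). Replicate 2 had 4, from 1964 to 5485 bp downstream, ranks 8062 to 20400, none of which overlapped it. The pooled list had none.

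At unc-10, the RIM gene, both replicates had a region far upstream, and the pooled region there fell 8 ranks below the last IDR peak. The pooled region, chrX:7284661-7285000, 4509 bp upstream and outside protein-coding genes, had signal 44.8 and rank 254, where the last IDR peak, rank 246, and the first region outside, rank 247, both had 45.4. Replicate 2 gave it signal 21.4 and rank 235 (0.783%), the best of any member in that replicate, and replicate 1 signal 21.8 and rank 932 (7.93%), and the replicate summits were 38 bp apart. The 246 strongest regions of replicate 2 therefore held unc-10 and not unc-64. The nearest protein-coding start was that of unc-10. A weaker pooled region 2882 bp upstream, signal 24.2 and rank 2934, lay 15 bp inside the annotated start of the non-coding RNA gene K03A1.9, and was overlapped by replicate 2 only, with signal 13.9 and rank 1748 (5.83%).

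At unc-104, the kinesin gene, the region at the start itself was listed in both replicates. Its pooled summit, 100 bp upstream, had signal 33.9 and rank 617. Replicate 1 had signal 22.5 and rank 787 (6.70%) 83 bp upstream, and replicate 2 signal 12.2 and rank 3301 164 bp upstream, with a second overlapping region of rank 14831 in the 5' UTR. It was the only member with overlapping replicate regions in the gene or within 1000 bp upstream of its start. The distal pooled region, 1843 bp upstream with signal 33.1 and rank 670, was weak in each replicate taken alone, at rank 6356 (54.1%) and 8230 (27.4%). A further replicate 1 region lay in a coding exon 1001 bp downstream of the gene start and 56 bp downstream of the start of another transcript, with signal 19.7 and rank 1493 (12.7%).

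At unc-11, the gene of the AP180 clathrin adaptor, the replicates listed different places. Replicate 1 had regions 84 and 940 bp upstream, with signal 15.7 and 17.2 and ranks 4495 and 3025. Replicate 2 had 6, the strongest in an intron 4497 bp downstream with signal 13.7 and rank 1862 (6.21%). None overlapped between the replicates, and the pooled list had none.

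**Figure D2:**
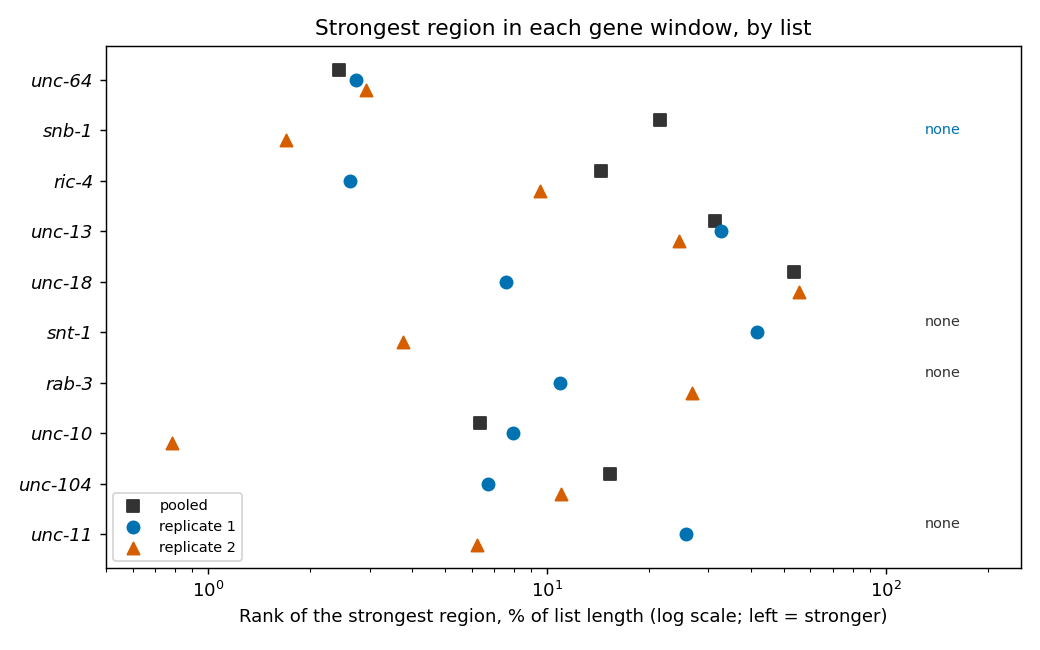
Rank of the strongest region in each gene window as a percentage of the length of its list, on a log axis, for the pooled list (squares), replicate 1 (circles) and replicate 2 (triangles); "none" marks a list with no region in the window. The points of unc-64 lie between 2.44% and 2.92%. Its replicate 2 point is another region, 4680 bp upstream, and the replicate 2 region at the IDR peak is at 3.29%. The points of snb-1, ric-4, snt-1, unc-18 and unc-10 lie far apart. At ric-4, snt-1 and unc-18 the replicate 1 and replicate 2 points are regions at different places.

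Over all members, a minority of the regions of each replicate list were overlapped by the other list, as over the whole lists. Of pooled regions, a minority at members but a majority over the whole list were overlapped by both replicates. Of the 11 pooled regions, 4 were overlapped by regions of both replicates, at unc-64, unc-10 and both places at unc-104, 3 by replicate 1 only, 3 by replicate 2 only and 1 by neither. Over all pooled regions 56.0% were overlapped by both, 20.8% by replicate 1 only, 21.5% by replicate 2 only and 1.70% by neither. Of the members' 18 replicate 1 regions, 5 (27.8%) were overlapped by a replicate 2 region, against 34.4% of the whole list. Of their 62 replicate 2 regions, 6 (9.68%) were overlapped by a replicate 1 region, against 13.6%. By the authors' own score within each list, a q-value under 0.05 was reached by 2 of the 11 pooled regions, those of unc-64 and the stronger of unc-10 (8.05% of the whole list), by 0 of the 18 in replicate 1 (1.73%) and by 7 of the 62 in replicate 2 (7.68%). The whole-list shares include the IDR peaks, 1 of which is at a member, and these comparisons were described and not tested.

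**Figure D3:**
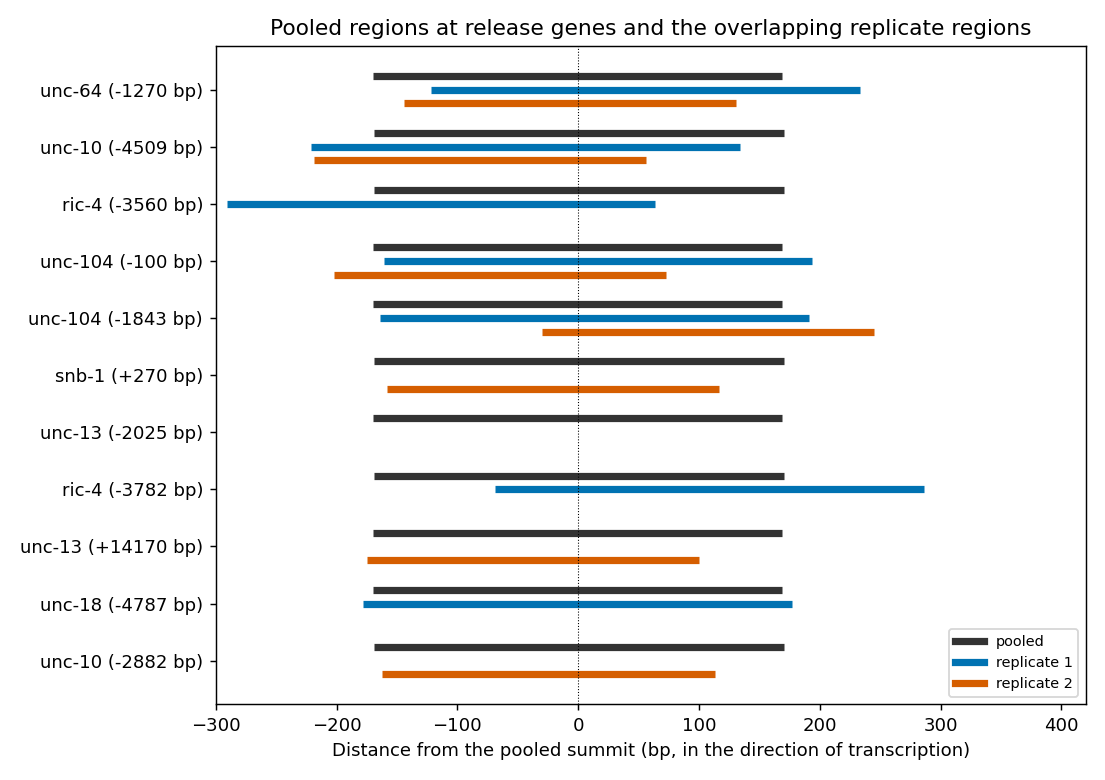
Extent of the 11 pooled regions at release genes (dark) and of the strongest overlapping region of replicate 1 (blue) and replicate 2 (orange), in bp from the pooled summit; rows are in order of pooled rank with the distance from the gene start. Both replicates are present in 4 rows and neither in the upstream row of unc-13.

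Listed regions were denser upstream of the release genes than upstream of genes at large, and not in their gene bodies in 2 of 3 lists. The 50 kb upstream of the members held 9 pooled summits, 1.80 per 10 kb, against 0.421 per 10 kb over the 5 kb upstream of all protein-coding genes, with overlapping stretches counted once. For replicate 1 it was 2.00 (10 summits) against 1.19, and for replicate 2 it was 5.40 (27 summits) against 3.00. In the 93.8 kb of gene bodies it was 0.213 (2 summits) against 0.341 in the pooled list and 0.853 (8) against 1.16 in replicate 1, and 3.73 (35) against 2.90 in replicate 2. Upstream stretches include parts of neighbouring genes, and 8 of the 11 pooled regions at members had the member's own start as the nearest protein-coding start. The rest are all among the 9 upstream: the ric-4 pair, whose regions share 118 bp, and the unc-18 region in an intron of stn-2. These densities rest on 2 to 35 summits and were described and not tested.

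**Figure D4:**
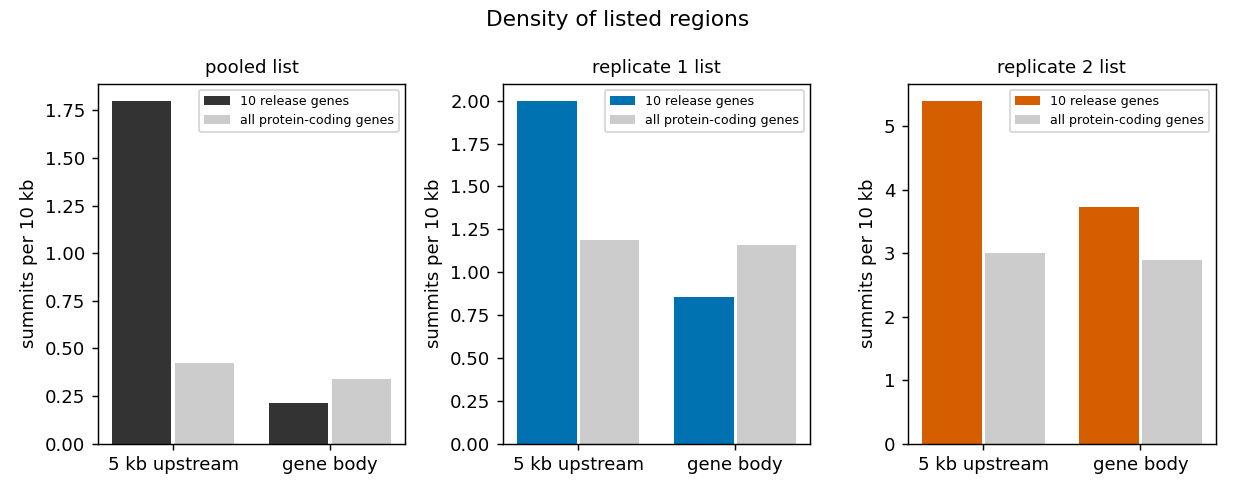
Summits per 10 kb in the 5 kb upstream and in the gene body, for the 10 release genes (coloured) and all protein-coding genes (grey), in the pooled list and each replicate; axes start at 0 and differ in scale. The coloured bar is the higher one upstream in every panel, at 1.80, 2.00 and 5.40.

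The wider set of 61 vesicle cycle genes that are not members had 5 genes with an IDR peak (8.20%, against 2.21% of all genes), and 3 of these act in the G protein pathways that set the rate of release. The 5 were dpy-23, which encodes a subunit of the AP-2 clathrin adaptor (signal 79.7, rank 52, 313 bp upstream), unc-76, an axonal transport gene (62.1, rank 99, 247 bp upstream), eat-16, which encodes an RGS protein that restrains Gq (61.2, rank 103, 383 bp upstream and in an intron of ocrl-1), egl-30, the Gq alpha gene, and egl-10, an RGS gene acting on Go (47.5, rank 215, 2530 bp upstream). At egl-30 there were 2 IDR peaks, 60 bp upstream (signal 53.4, rank 147) and 1210 bp downstream (signal 46.2, rank 231). The downstream peak lay in the 5' UTR of egl-30, but the start of C53H9.4, 1091 bp away, was nearer. In this set 36 of 61 genes (59.0%, against 25.2% of all genes) had a pooled region, 56 (91.8%, against 57.2%) a replicate 1 region and 58 (95.1%, against 86.3%) a replicate 2 region. Overlapping regions of both replicates were at 38 (62.3%, against 25.0%). The median window was 11305 bp, against 7027 bp over all genes.

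By role, a pooled region was at 10 of 10 release modulation genes (median window 13636.5 bp), 5 of 7 active zone genes, 2 of 3 calcium entry genes, 6 of 11 recycling genes, 7 of 14 priming and fusion genes, 4 of 9 transport genes and 2 of 7 genes of vesicle proteins and Rab regulators. Overlapping regions of both replicates were, in the same order, at 10 of 10, 2 of 7, 2 of 3, 8 of 11, 8 of 14, 5 of 9 and 3 of 7. These counts stand beside the 25.2% and 25.0% of all genes and were not tested.

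**Figure D5:**
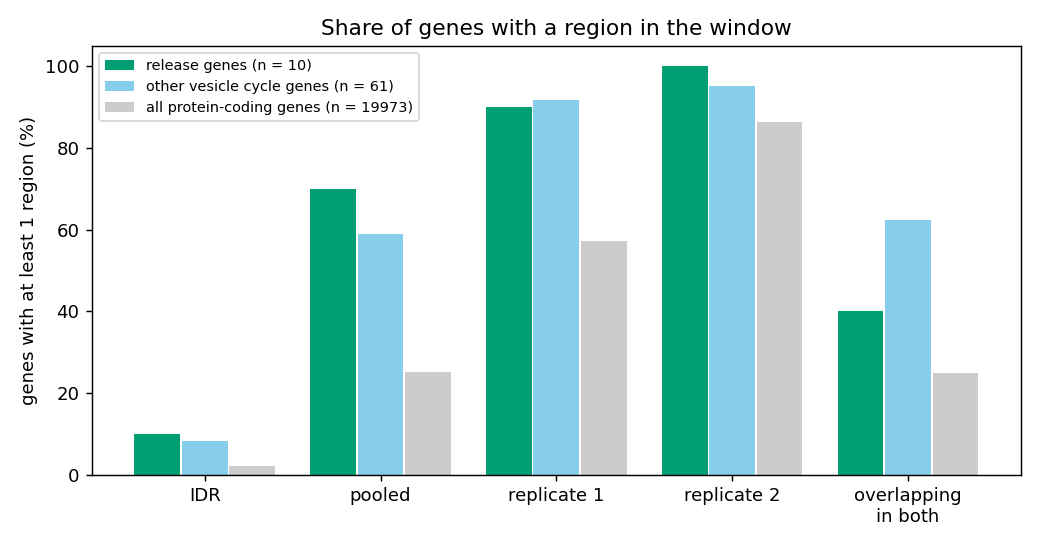
Percentage of genes with at least 1 region in the window, for the 10 release genes, 61 other vesicle cycle genes and all 19973 protein-coding genes, in each list and for overlapping regions of both replicates. The release genes stand at 70.0% in the pooled list and 40.0% for overlapping regions, the other vesicle cycle genes at 59.0% and 62.3%.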

How the data were processed

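ChIP-seq region lists of 2 biological replicates were used in the ce11 build, which is WBcel235. Per the deposited text listings, the replicate lists derive from the alignments of 1 replicate each, the pooled list from those of both, each time with 1 more file of unstated role, and the IDR list from these 3 lists. Aligner, peak caller and IDR threshold are not stated in these sources. The signal value per region, as deposited by the authors in a unit of their caller, was used to rank regions within a list. The −log10 of a q-value, as deposited by the authors and read as such by the convention of the file format, was used for the count of regions under 0.05 and as an alternative ranking. The ce10 lists were not used here.

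Genes and transcripts came from Ensembl 115 and bases from the RefSeq WBcel235 genome; chromosome names matched and 0 regions ended beyond a chromosome. Positions are 1-based. The gene start is the outermost annotated one. Where a summit lies in several features of a gene, coding exons came first, then UTRs, other exons and introns. All 10 members were named, with every pooled region and the best region of each replicate, and of the wider set the genes with an IDR peak, which are also the 5 with the best pooled rank. The members, the wider set and the hexamers were chosen with earlier results of these data known, so counts are described beside all protein-coding genes and no test was made. The counting was tested on simulated summits. Computation used Python 3.11.15, numpy 2.4.6, pandas 2.3.3 and matplotlib 3.10.9.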

Additional observations from a re-analysis of the deposited data

How the results depend on the processing

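No paired analysis was possible because the series has a single group. Of 32 alternative counts of members, 25 stayed within 1.5 times the reported count and 7 did not; a shorter window, which holds fewer summits by construction, gave 6 of the 7. With 1000 bp upstream in place of 5000, 0 members had an IDR peak (1.11% of all genes), 3 a pooled region, snb-1, unc-13 and unc-104 (14.4%), and 1 overlapping regions of both replicates, unc-104 (13.9%). With the gene body only, these were 0 (0.305%), 2 (8.87%) and 0 (8.51%). With 1 replicate left out, the strongest 246 regions of the other held 0 to 1 members. These were unc-10 without replicate 1 (1.95% of all genes) and none without replicate 2 (2.15%). The strongest 4010 held 7 members without replicate 1 and 8 without replicate 2, against 26.2% of all genes each time. Counting only regions whose nearest protein-coding start is the member's gave 5 members with a pooled region (13.7%). Among the strongest 4010 regions of each replicate, 3 members had overlapping regions, unc-64, unc-10 and unc-104 (5.03%). The counts for a single replicate's list, and for regions shared by both, cannot be recomputed without a replicate. With no read counts, the depth behind a region's absence from a list is unknown.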
